A study of Anableps anableps with 8 samples.

Results

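The 8 gene names FIBCD1, TMEM91, DZANK1, FEZ1, CIB2, cycsb, sh3bp5b and LPCAT1 stood on 15 of the 22934 rows of the gene table of an adult Anableps anableps retina, and were proposed as genes of green-opsin (rh2) cones on the VAX2 side of the eye. The names were picked from earlier results on the same nuclei, which set rh2 cones against red-opsin (lws) cones and vax-marked against tbx5-marked cones. Values in those contrasts are therefore a description here, and no test supports them. The data went against that label in part. FIBCD1 and cycsb were highest, among cone groups and rods, in cones of a single rh2 copy (copy A), whether or not VAX2 was detected. Cones of lws also held cycsb, at a lower level. CIB2 was highest in copy A cones too, followed by cones of the other rh2 copy and of lws. FEZ1 was highest in sws2 cones and in cones of the other rh2 copy, whose ranges overlapped. Within copy A and sws2 cones, TMEM91 and DZANK1 were higher in nuclei without a VAX2 UMI (a captured VAX2 RNA molecule). Within sws1 cones the same held for TMEM91. Inside the cluster that held most copy A cones, the TMEM91 difference was less than 2-fold. In sws2 cones the TMEM91 difference rested on few UMIs and was lost at a lower depth. Both genes were low in lws cones, which had almost no VAX2. Among cone groups and rods, sh3bp5b and a row of LPCAT1 were highest in cones of the other rh2 copy. The sh3bp5b gene was also found in lws cones and in iridophore-like and amacrine-like nuclei.

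Whole retinas of adult animals gave nuclei whose RNA was sequenced one nucleus at a time by combinatorial barcoding, with no treatment and no genotype contrast. The series described 5 biological replicates pooled into 8 sublibraries. The matrix used here holds 2 retina names and 2 sublibraries that match none of those labels, so values are given for retina 1 and retina 2 by name, and the spread between them is not known to be a spread between animals. With 2 names a sign-flip test could not go below a p of 0.5, so no p-value is given.

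Anableps lives at the water surface with each eye divided at the water line, so that its ventral retina looks into air and its dorsal retina into water. VAX2 is a homeobox factor that marks the ventral retina of vertebrates, and tbx5 genes mark the dorsal retina. Each fish cone usually makes a single kind of opsin: rh2 for green, lws for red, sws2 for blue and sws1 for ultraviolet light. The member genes do not form a pathway. They code for 2 membrane proteins (FIBCD1, TMEM91), 2 proteins of motor-driven transport (DZANK1, FEZ1), a calcium-binding protein (CIB2), 2 proteins of mitochondria (cycsb, sh3bp5b) and an enzyme of membrane lipids (LPCAT1).

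Barcodes with at least 500 UMIs (unique molecular identifiers, each standing for a captured RNA molecule) were taken as nuclei, which gave 6430, with a median of 3787 UMIs in retina 1 and 4082 in retina 2. The sublibraries shared 99 barcode strings among their nuclei. Of 1583 cone-like nuclei, 449 were dominated by the rh2 copy opn1mw1 ENSABLG00000007605 (copy A cones), 254 by the copy ENSABLG00000007592 (copy B cones), 76 by lws, 146 by sws1 and 150 by sws2, and 508 had no dominant opsin. Rod-like nuclei numbered 1502. The summed level of 21 cone marker rows was 9212 to 13994 CPM (UMIs of a gene per 1000000 UMIs) in the cone groups and 571 to 612 CPM in rods. That of 26 rod marker rows was 158 to 413 CPM in the cone groups and 26521 to 27291 CPM in rods. The same marker lists had named the clusters, so these levels describe the groups and do not test their names. VAX2 stood at 152 CPM in copy A cones, 181 CPM in copy B cones, 285 CPM in sws1 cones, 127 CPM in sws2 cones and 260 CPM in rods, against 4.5 CPM in lws cones. A VAX2 UMI was found in 30.5% of copy A cones and in 2.6% of lws cones.

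Of the 15 rows, 9 had at least 100 UMIs in the nuclei and carry the results. They are FIBCD1 (ENSABLG00000016886, 17689 UMIs), TMEM91 (ENSABLG00000006819, 5713 UMIs), DZANK1 (ENSABLG00000001771, 10967 UMIs), FEZ1 (ENSABLG00000014330, 2415 UMIs), CIB2 (ENSABLG00000004308, 3208 UMIs), cycsb (ENSABLG00000009764, 880 UMIs), sh3bp5b (ENSABLG00000008876, 1987 UMIs) and 2 rows of LPCAT1 (ENSABLG00000015600 with 1086 UMIs and ENSABLG00000021193 with 2175 UMIs). The other 6 rows were sparse: a second DZANK1 (ENSABLG00000010807) had 96 UMIs, the CIB2 rows ENSABLG00000019284 and ENSABLG00000022327 had 39 and 19, the cycsb row ENSABLG00000009351 had 7, and the cycsb rows ENSABLG00000010114 and ENSABLG00000010115 had 0. DZANK1, CIB2 and cycsb below mean their abundant rows. The sources used here do not say how reads that fit more than 1 copy were assigned, which limits the split between the LPCAT1 rows and between the rh2 copies.

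To place each member, its level was taken in every cone group and in rods, as CPM of the summed UMIs of the group with 95% Poisson intervals that cover counting error only. FIBCD1, a transmembrane receptor whose fibrinogen-like domain binds chitin and other acetylated sugars in mammals, had the highest level of the 9 rows in copy A cones. It stood at 1875 CPM in retina 1 and 1913 CPM in retina 2 in copy A cones. Copy B cones had 2.9 and 42.9 CPM, sws1 cones 16.3 and 25.8 CPM, sws2 cones 14.7 and 5.4 CPM, rods 13.1 and 10.1 CPM, and lws cones 0 in both. Both copy A values lay far above all others, and the ranges of copy B and sws1 cones overlapped, as did those of rods and sws2 cones. After every nucleus was thinned to 2000 UMIs, 88.7% of 426 copy A cones held a FIBCD1 UMI (unthinned 94.2%). Of 507 rods 2.4% did (unthinned 1.6%, 995 shallower rods left out). Whether the FIBCD1 UMIs of rods were background or expression was not tested. No lws cone of 74 held any, and a count of 0 allows up to 4.1% of them to hold a UMI at this depth, which says nothing of lws cones that make the RNA below it. Of the 18 FIBCD1 UMIs of sws1 cones, 17 lay in 6 nuclei that clustered with sws2 cones, and the other 140 sws1 cones had 1 UMI (1.3 CPM).

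TMEM91, a small membrane protein related to the synapse protein SynDIG1, followed another line. It had 345 and 284 CPM in copy A cones, 321 and 250 CPM in sws1 cones and 170 and 248 CPM in sws2 cones. In lws cones it had 8.3 and 4.8 CPM, in rods 5.1 and 1.9 CPM and in copy B cones 2.9 and 0 CPM. The gene was thus shared by 3 cone types and close to undetected in copy B cones, although those make the sister opsin. Copy A and sws1 cones overlapped between the retina names, and both sws2 values lay below them, the nearest pair (250 CPM in sws1 and 248 CPM in sws2 cones) by less than counting error. Thinned, 24.4% of copy A, 25.7% of sws1 and 16.3% of sws2 cones held a UMI, against 0.79% of rods.

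DZANK1, a zinc-ribbon and ankyrin protein that acts with Ninl in dynein-driven vesicle transport in zebrafish photoreceptors, was highest in sws2 cones, with 463 and 651 CPM. Copy A cones had 362 and 171 CPM, and the 95% Poisson intervals of these 2 values did not overlap. Copy B cones had 2.9 and 42.9 CPM, sws1 cones 10.9 and 17.2 CPM, lws cones 4.2 and 4.8 CPM and rods at most 13.1 CPM. The sws2 and copy A ranges did not overlap, and copy B, sws1 and rod ranges did. In copy A cones the 551 DZANK1 UMIs came from 70 of 449 nuclei, so a small share of nuclei held many UMIs each. The Poisson intervals leave out that spread between nuclei, so their lack of overlap does not show a difference between the retina names.

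FEZ1, an adaptor of the motor kinesin-1 in axonal transport, was low throughout. It had 90.0 and 68.1 CPM in sws2 cones, 68.5 and 63.0 CPM in copy B cones and 39.9 and 36.0 CPM in copy A cones. In sws1 cones it had 8.2 and 2.2 CPM, in rods 3.6 and 1.3 CPM and in lws cones 4.2 and 0 CPM. The sws2 and copy B ranges overlapped, copy A lay below both, and the 3 remaining groups were near 0.

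CIB2 is a calcium- and integrin-binding protein needed for mechanotransduction in hair cells and linked to deafness in humans. Its level was higher in both rh2 groups and in lws cones than in sws1 cones, sws2 cones and rods. It stood at 255 and 237 CPM in copy A cones, 176 and 155 CPM in copy B cones and 129 and 140 CPM in lws cones. In sws2 cones it had 18.8 and 27.2 CPM, in rods 2.9 and 1.3 CPM and in sws1 cones 0 and 2.2 CPM. No ranges overlapped from copy A down to sws2 cones, while those of rods and sws1 cones did.

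Among the mitochondrial proteins, cycsb, a cytochrome c of the respiratory chain, had 114 and 94.3 CPM in copy A cones. It had 25.0 and 38.7 CPM in lws cones, 11.4 and 7.2 CPM in copy B cones, 8.4 and 2.7 CPM in sws2 cones, 5.1 and 3.8 CPM in rods and 2.7 and 0 CPM in sws1 cones. Copy A lay above lws cones, and lws cones above the rest. The pattern of sh3bp5b, whose mammalian counterpart binds the kinase JNK at mitochondria and activates Rab11, was the reverse of cycsb among rh2 cones: copy B cones had 176 and 126 CPM, lws cones 33.4 and 77.5 CPM, and copy A cones 6.5 and 2.1 CPM. Its sws1, sws2 and rod levels were at most 4.2 CPM under either retina name.

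The 2 rows of LPCAT1, an acyltransferase that makes phosphatidylcholine and whose loss leads to photoreceptor degeneration in mice, behaved unlike each other. LPCAT1 ENSABLG00000015600 had 166 and 97.3 CPM in copy B cones, and between 0.6 and 23.7 CPM in each of the other groups, copy A cones included at 6.5 and 2.1 CPM. LPCAT1 ENSABLG00000021193 was even: 38.9 and 35.0 CPM in copy A cones, 34.3 and 34.3 CPM in copy B cones, 41.7 and 38.7 CPM in lws cones, 27.2 and 34.5 CPM in sws1 cones and 41.9 and 40.9 CPM in sws2 cones. Rods were highest, at 55.3 and 80.4 CPM. The name LPCAT1 therefore stood for a copy B cone gene and for a gene found in all photoreceptors.

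**Figure D1:**
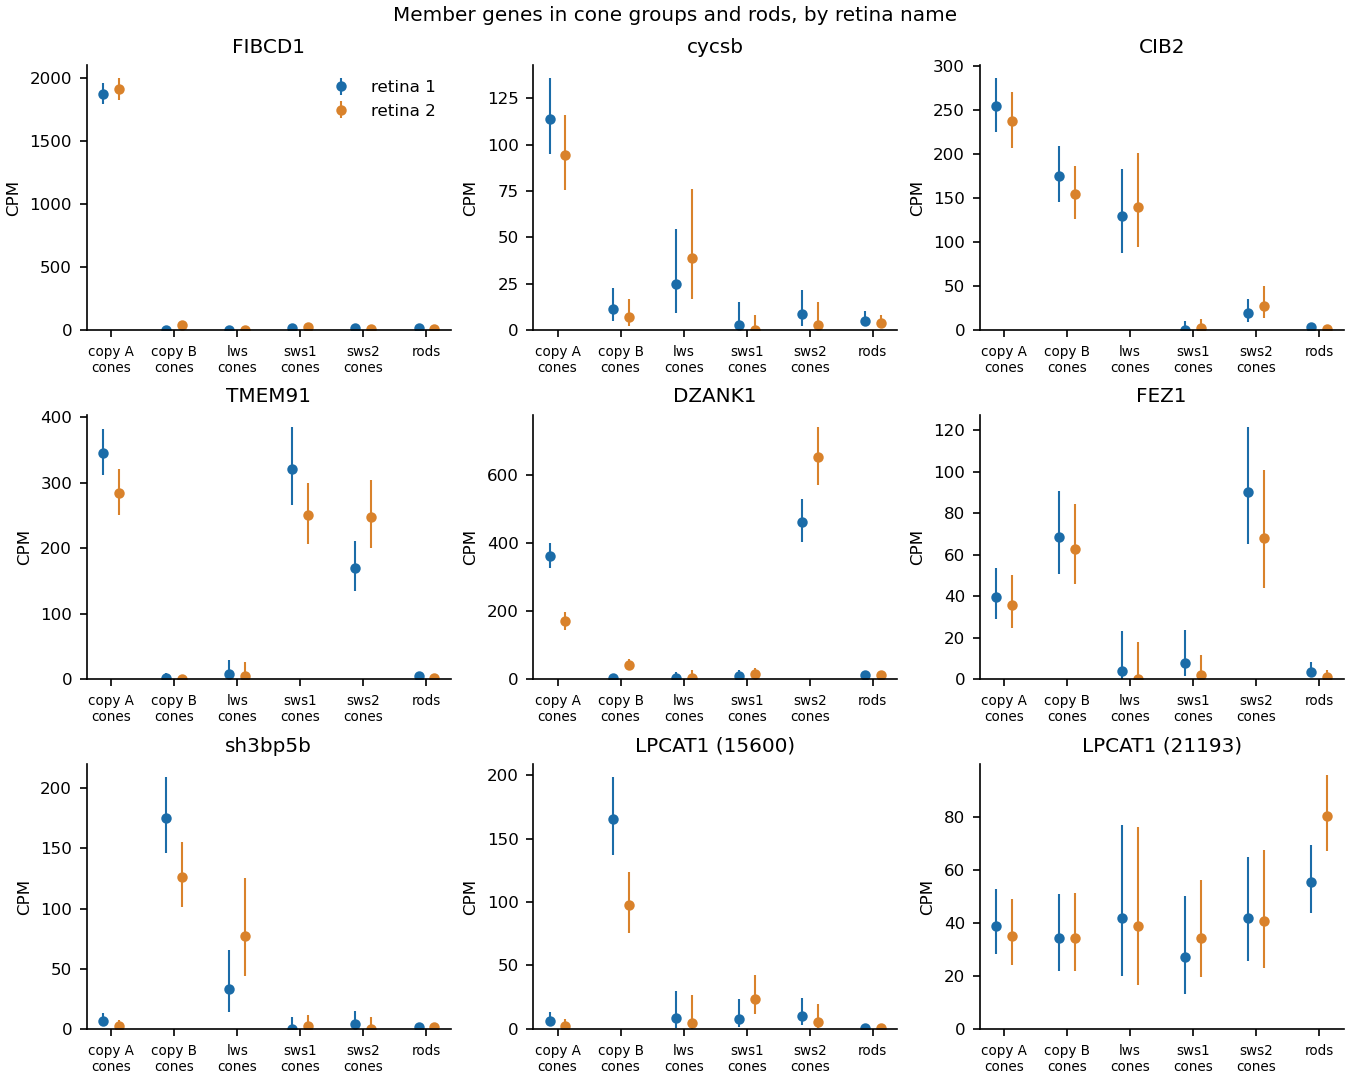
Level of the 9 abundant member rows (y axis, CPM from 0, own scale per panel) in 5 cone groups and rods (x axis), with a point per retina name and 95% Poisson intervals for counting error. FIBCD1, cycsb and CIB2 peak in copy A cones, sh3bp5b and LPCAT1 ENSABLG00000015600 in copy B cones, and DZANK1 in sws2 cones. LPCAT1 ENSABLG00000021193 lies between 27.2 and 41.9 CPM in the cone groups.

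The next comparison asked which members tell the rh2 copies apart. A gene was called when its CPM differed by more than 2-fold with at least 20 UMIs over both groups, and each log2 ratio has a 95% exact conditional interval on the counts. Of the 9 rows, 4 were higher in copy A than in copy B cones, where 5.25% of 8556 genes were, and 2 were lower, where 2.96% of genes were. The median over all those genes was 0.01 on the log2 scale. Copy A cones were part of the contrasts that chose the members, so these counts are a description and not independent of the choice. TMEM91 and cycsb reached the UMI minimum through copy A cones, and sh3bp5b and LPCAT1 ENSABLG00000015600 through copy B cones. TMEM91 had the highest log2 ratio, 7.79 (5.93 to 10.84), from 640 UMIs in copy A cones and 2 UMIs in copy B cones. FIBCD1 had 6.37 (5.87 to 6.92), and the retina names differed at 9.36 and 5.48, since 30 of its 32 copy B UMIs came from retina 2. DZANK1 had 3.57 (3.06 to 4.14), with 6.99 in retina 1 and 1.99 in retina 2, and cycsb had 3.50 (2.69 to 4.43), with 3.32 and 3.72.

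On the other side, sh3bp5b had a copy A over copy B log2 ratio of -5.08 (-6.23 to -4.13) and LPCAT1 ENSABLG00000015600 of -4.88 (-6.04 to -3.93), with values of -4.67 to -5.89 under the retina names. Each had 9 UMIs in all copy A cones, against 211 UMIs of sh3bp5b and 184 of LPCAT1 ENSABLG00000015600 in copy B cones. FEZ1 was lower in copy A cones by less than 2-fold, at -0.79 (-1.24 to -0.34), and CIB2 higher by less than 2-fold, at 0.58 (0.35 to 0.81), both with the same sign under both retina names. LPCAT1 ENSABLG00000021193 had 0.11 (-0.43 to 0.67). VAX2 itself differed little between the copies, at -0.25 (-0.50 to -0.01).

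**Figure D2:**
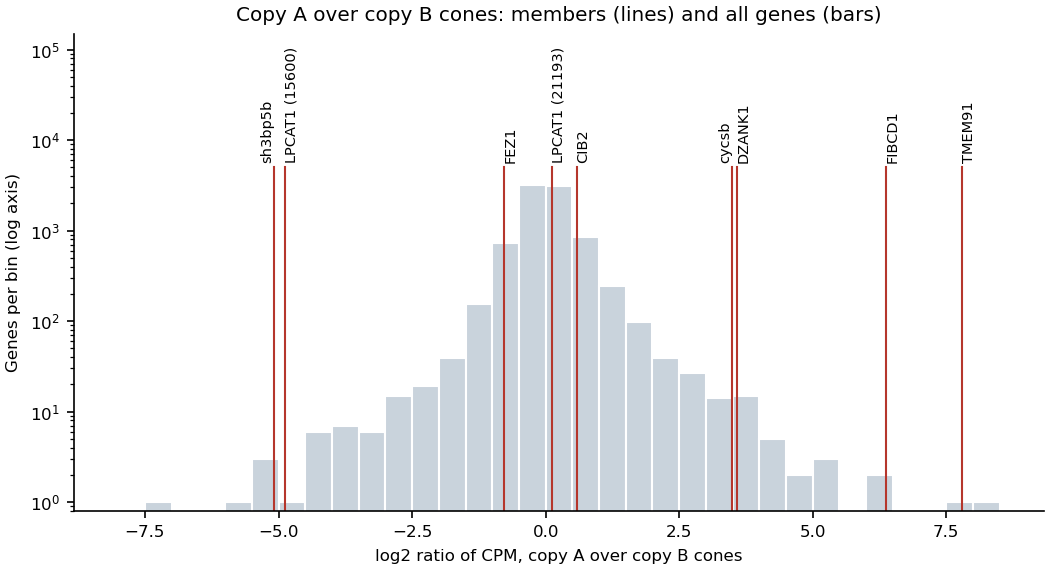
Log2 ratio of CPM, copy A over copy B cones (x axis), as the number of genes per bin of 0.5 (bars, log y axis) over the 8556 genes with at least 20 UMIs, with the 9 member rows as red lines. The members are spread over both tails, from -5.08 for sh3bp5b to 7.79 for TMEM91, and 3 of them lie within 1 of 0.

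Against lws cones, the contrast that helped to choose the members, 5 of 8 tested rows were higher in copy A cones, where 9.42% of 7834 genes were, and 1 was lower, where 4.79% of genes were. These counts are a description and not independent of the choice. The higher rows reached the UMI minimum through copy A cones and sh3bp5b through lws cones. LPCAT1 ENSABLG00000015600, low in both groups, did not reach it. In the 74 lws cones without a VAX2 UMI, TMEM91 had 3 UMIs, DZANK1 2 and cycsb 14. FIBCD1 was at least 8.14 higher on the log2 scale, with the floor of 3 counts in place of 0 for the lws group. DZANK1 had 5.93, TMEM91 5.56, FEZ1 4.09 and cycsb 1.74, the FEZ1 value resting on 1 lws UMI (1.57 to 9.41). That call was lost with nuclei thinned to 1000 UMIs and within the lws cluster, where the floor of 3 counts stood for lws cones and gave -0.45 and -0.17, which fix no direction. The lower row was sh3bp5b, at -3.59 (-4.88 to -2.44). CIB2 reached 0.88 (0.49 to 1.29) and was not called.

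Rods were not part of the contrasts that chose the members, but copy A cones were, so the ratios to rods are a description and not independent of the choice. Of 7 rows with enough UMIs, 6 were higher in copy A cones than in rods, where 16.3% of 10108 genes were, and 0 were lower, where 20.1% of genes were. FIBCD1 had a log2 ratio of 7.36 (6.88 to 7.89), CIB2 6.93 (5.79 to 8.38), TMEM91 6.55 (5.66 to 7.61), cycsb 4.57 (3.77 to 5.51), DZANK1 4.44 (3.96 to 4.97) and FEZ1 4.01 (2.89 to 5.37). All of them had the same sign under both retina names. TMEM91, CIB2, FEZ1 and cycsb had 6 to 13 rod UMIs and reached the UMI minimum through copy A cones, while sh3bp5b and LPCAT1 ENSABLG00000015600, both low in copy A cones, did not reach it. LPCAT1 ENSABLG00000021193 went the other way by less than 2-fold, at -0.89 (-1.29 to -0.50). Copy A cones and rods differed in depth, with medians of 4056 and 1614 UMIs per nucleus.

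The label ties the genes to VAX2, so copy A cones with at least 1 VAX2 UMI (137 nuclei) were set against those with none (312 nuclei). A nucleus with none may hold VAX2 RNA that was not captured, and median depths were 4278 and 3982 UMIs. Of 7 tested rows 0 were higher in VAX2-positive cones, where 2.28% of 7309 genes were, and 2 were lower, where 4.05% of genes were. TMEM91 had 118 CPM in VAX2-positive and 412 CPM in VAX2-zero copy A cones, or -1.80 as a log2 ratio (-2.16 to -1.45; -1.89 and -1.67 under the retina names). DZANK1 had 39.5 and 385 CPM, a ratio of -3.29 (-3.91 to -2.72). That of retina 1 was -4.20 and that of retina 2 was -2.20, with -1.77 in sublibrary s1 and -7.43 in sublibrary s2. Both genes were thus lower, not higher, where VAX2 was found.

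FIBCD1 differed little with VAX2, at 1701 CPM in VAX2-positive and 1985 CPM in VAX2-zero copy A cones (log2 ratio -0.22, -0.32 to -0.12). The cycsb ratio was also -0.22 (-0.68 to 0.21), and that of LPCAT1 ENSABLG00000021193 was 0.05 (-0.70 to 0.77). CIB2 leaned towards VAX2, with 305 and 218 CPM (0.48, 0.22 to 0.75), and so did FEZ1, with 51.6 and 31.5 CPM (0.71, 0.02 to 1.39). The FEZ1 difference was not steady, since its ratio was -0.52 in sublibrary s1 and 1.61 in sublibrary s2. Too few UMIs of sh3bp5b and LPCAT1 ENSABLG00000015600 were present in copy A cones for a ratio.

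These levels were also read within the clusters, which had been made without the members, the opsins, VAX2 and tbx5. A cluster of 316 copy A cones had VAX2 at 211 CPM, TMEM91 at 79.0 CPM and DZANK1 at 34.2 CPM. A cluster of 124 copy A cones, which also held 73 of the 76 lws cones, had VAX2 at 24.1 CPM, TMEM91 at 828 CPM (930 and 721 CPM in the retina names) and DZANK1 at 727 CPM (1065 and 372 CPM). Among copy A cones, those that clustered with lws cones were therefore the main carriers of both genes. FEZ1 ran the other way, with 53.2 CPM in the first cluster and 6.4 CPM in the second, as did CIB2 with 305 and 149 CPM. FIBCD1 was at 1776 and 2179 CPM and cycsb at 106 and 112 CPM, close to even. Within the first cluster alone, VAX2-positive over VAX2-zero cones gave -0.26 for TMEM91 and -1.73 for DZANK1. Both differences were thus smaller within that cluster than over all copy A cones, where they were -1.80 for TMEM91 and -3.29 for DZANK1. How much of either difference lay between clusters was not computed.

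TMEM91 and DZANK1 were also counted together in single nuclei. Of 426 copy A cones thinned to 2000 UMIs, 37 held UMIs of both genes, 67 of TMEM91 without DZANK1 and 21 of DZANK1 without TMEM91. Of 147 sws2 cones, 16 held both, 8 TMEM91 without DZANK1 and 27 DZANK1 without TMEM91. The copy A counts pool the clusters described above, in which both genes differed the same way, so they add no separate support. Of 150 sws2 cones, 147 lay in a single cluster. Whether the 2 genes met in sws2 cones more often than their shares give was not tested.

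**Figure D3:**
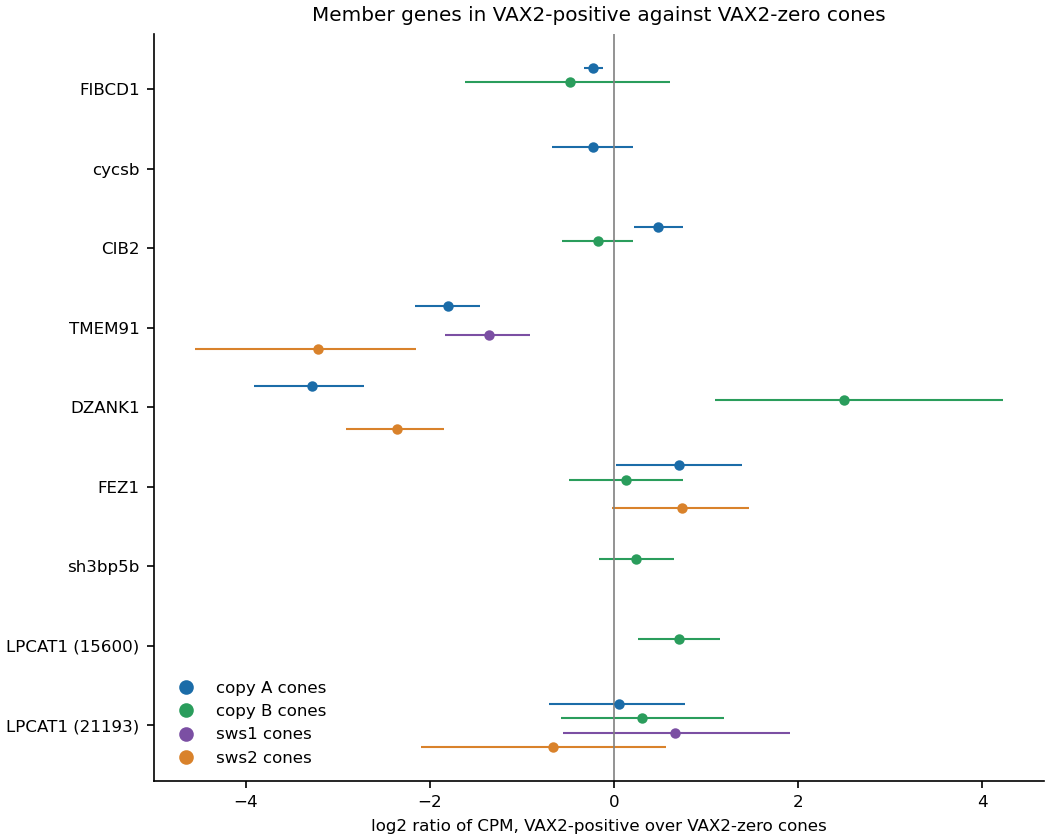
Log2 ratio of CPM (x axis) between VAX2-positive and VAX2-zero cones for each member row (y axis) in copy A, copy B, sws1 and sws2 cones, with 95% exact conditional intervals; rows with fewer than 20 UMIs over both groups are not drawn. TMEM91 lies left of 0 in copy A, sws1 and sws2 cones, DZANK1 in copy A and sws2 cones, and FIBCD1 near 0 in copy A cones.

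In sws1 cones, 0 of 2 tested rows were higher with VAX2 (63 nuclei) than without (83 nuclei), where 4.06% of 4724 genes were, and 1 was lower, where 4.28% of genes were. It was TMEM91, at 148 CPM in VAX2-positive and 379 CPM in VAX2-zero sws1 cones (-1.36, -1.84 to -0.91; retina names -1.60 and -1.14). In sws2 cones (42 and 108 nuclei), 0 of 4 tested rows were higher with VAX2, where 3.45% of 4813 genes were, and 2 were lower, where 6.59% of genes were. DZANK1 had 138 CPM in VAX2-positive and 706 CPM in VAX2-zero sws2 cones (-2.36, -2.91 to -1.84; retina names -1.99 and -2.87). TMEM91 had 7 UMIs against 165 (-3.22, -4.56 to -2.15), with 0 against 81 in retina 1 and a ratio of -1.93 in retina 2. That call was lost with nuclei thinned to 1000 UMIs, where the floor gave 0.12. FEZ1 was not called, at 113 and 67.7 CPM (0.74, -0.02 to 1.47; retina names 0.07 and 1.77).

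The levels were also read by the number of VAX2 UMIs in a nucleus. In sws1 cones TMEM91 stood at 379, 259 and 84.5 CPM with 0, 1 and 2 or more VAX2 UMIs. In sws2 cones it stood at 273, 55.1 and 0 CPM, and DZANK1 at 706, 213 and 53.4 CPM. In copy A cones TMEM91 had 412, 108 and 125 CPM and DZANK1 385, 31.0 and 45.0 CPM, so nuclei with 1 VAX2 UMI were already low. FIBCD1 in copy A cones had 1985, 1730 and 1682 CPM over the same steps.

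**Figure D4:**
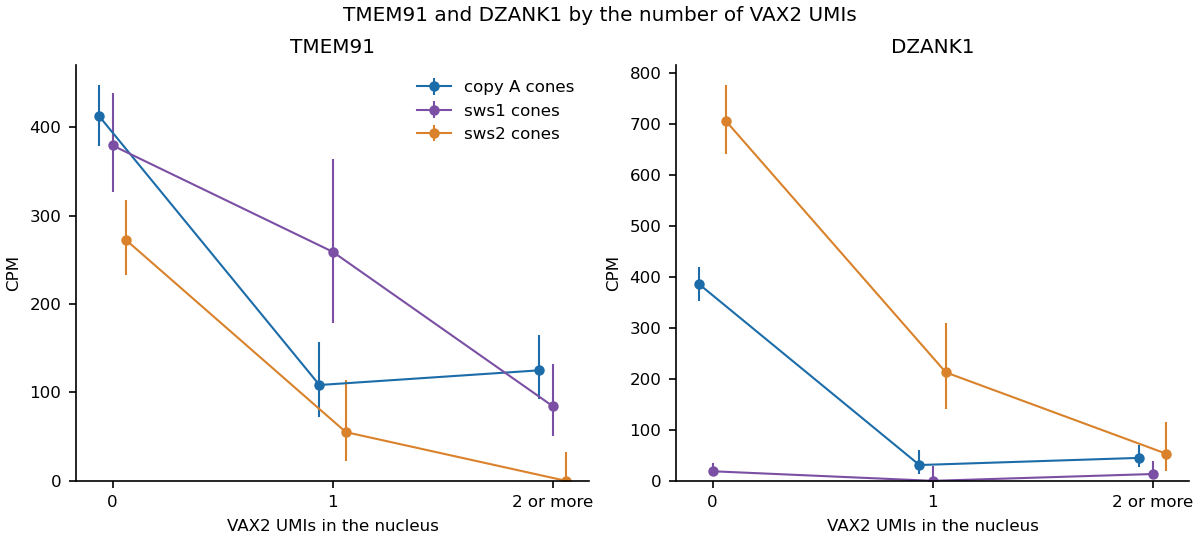
Level of TMEM91 and DZANK1 (y axis, CPM from 0) in nuclei with 0, 1 and 2 or more VAX2 UMIs (x axis) in copy A, sws1 and sws2 cones, with 95% Poisson intervals. Both genes are highest with 0 VAX2 UMIs, except DZANK1 in sws1 cones, which stays below 20 CPM.

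In copy B cones, 1 of 7 tested rows was higher with VAX2 (109 nuclei) than without (145 nuclei), where 2.72% of 6218 genes were, and 0 were lower, where 2.57% of genes were. This was DZANK1, with 27 UMIs against 5 (2.50, 1.10 to 4.23), of which 25 and 5 came from retina 2, so the call rested on that retina, and the ratio was -0.86 when cones needed 3 opsin UMIs and 95% of them. LPCAT1 ENSABLG00000015600 had 164 CPM in VAX2-positive and 101 CPM in VAX2-zero copy B cones (0.70, 0.26 to 1.15; retina names 1.01 and 0.25). The ratio of sh3bp5b was 0.24 (-0.16 to 0.65). CIB2 had -0.17 (-0.56 to 0.21), from 0.78 in retina 1 and -1.32 in retina 2, so the retina names disagreed in sign.

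In rods, 0 of 3 tested rows were higher with VAX2 (403 nuclei) than without (1099 nuclei), where 2.19% of 8631 genes were, and 0 were lower, where 2.82% of genes were. FIBCD1 had a log2 ratio of 0.67 (-0.41 to 1.72), DZANK1 of 0.62 (-0.42 to 1.63) and LPCAT1 ENSABLG00000021193 of -0.08 (-0.52 to 0.36), and sublibrary s2 alone gave 1 higher row. In Müller glia-like nuclei, 4 of 9 rows were higher with VAX2 (264 nuclei) than without (166 nuclei), where 12.5% of 11583 genes were, and 0 were lower, where 5.86% of genes were. The 4 were LPCAT1 ENSABLG00000015600 (2.90), CIB2 (1.61), cycsb (1.13) and sh3bp5b (1.12). The intervals of cycsb and sh3bp5b included 0, and retina 1 alone left 2 called rows. Their VAX2-positive levels, 12.1 to 31.1 CPM, lay below their levels in free RNA, 17.9 to 62.0 CPM. The VAX2-positive Müller glia-like nuclei were also deeper, with a median of 6979 UMIs against 4689.

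Free RNA, taken from 107803 barcodes under 100 UMIs, bears on all inner classes. It held FIBCD1 at 313 CPM, DZANK1 at 183 CPM, TMEM91 at 92.3 CPM, CIB2 at 62.0 CPM and VAX2 at 220 CPM. Rods and lws cones had far less of FIBCD1, TMEM91 and DZANK1. FIBCD1 stood between 192 CPM in retinal pigment epithelium-like and 403 CPM in microglia-like nuclei, and TMEM91 between 41.4 CPM in iridophore-like and 139 CPM in microglia-like nuclei. From 48.8% to 94.2% of the nuclei of these classes had a high doublet score, against 1.4% to 3.8% in the named cone groups and in rods. The part of free RNA and doublets in the inner-class levels was not tested.

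Some inner-class levels stood above free RNA under both retina names. DZANK1 had 337 and 354 CPM in retinal ganglion cell-like nuclei, where 86.5% of nuclei held a UMI at a median depth of 20633 UMIs. It had 260 and 287 CPM in amacrine-like and 263 and 231 CPM in bipolar-like nuclei. The ganglion cell-like cluster also carried amacrine markers. FEZ1 had 104 and 85.7 CPM in Müller glia-like nuclei, against 42.0 CPM in free RNA. The level of sh3bp5b was 149 and 110 CPM in the 63 iridophore-like nuclei and 49.5 and 106 CPM in amacrine-like nuclei, against 32.5 CPM in free RNA. LPCAT1 ENSABLG00000021193 had 57.2 and 50.1 CPM in bipolar-like nuclei, against 37.2 CPM.

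**Figure D5:**
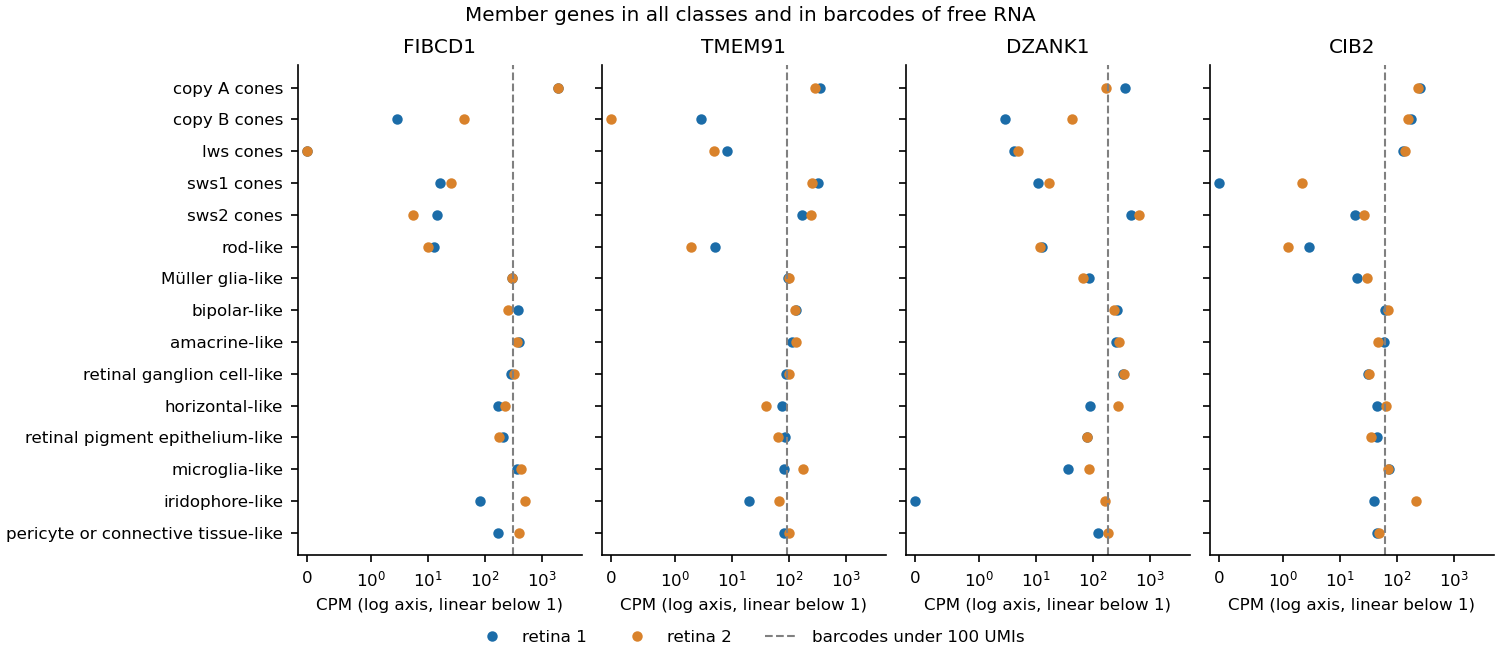
Level of FIBCD1, TMEM91, DZANK1 and CIB2 (x axis, CPM, log above 1 and linear below) in every cone group and class (y axis), with a point per retina name and the level in barcodes under 100 UMIs as a dashed line. FIBCD1 reaches 1893 CPM in copy A cones and lies around the free RNA level of 313 CPM in the inner classes.

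To see whether partners of the members moved with them, 8 lists of related genes were read in the same way. Between copy A and copy B cones, 0 of 32 respiratory-chain genes and 0 of 12 JNK signalling genes passed 2-fold, with medians of -0.16 and 0.01. Over all 8556 genes of this comparison 5.25% were higher and 2.96% lower, so counts of 0 do not set these short lists apart. The members cycsb and sh3bp5b did pass 2-fold, but they were chosen from contrasts that included copy A cones. Among 28 dynein and kinesin genes, 0 were higher and 1 was lower, the dynactin subunit dctn1b (-1.27), with a median of 0.02. Among 20 genes of phosphatidylcholine synthesis 0 were higher and 1 was lower, the acyl-CoA synthetase acsl1a (-2.85), with a median of -0.05. Of 8 Usher complex genes, partners of CIB2, 1 was higher, the scaffold USH1C (2.18; retina names 1.78 and 2.57), and 0 were lower. Of 6 relatives of the members 1 was higher, sh3bp5la (1.90), from 27 and 5 UMIs. Its ratio was 0.06 in retina 1, and that of dctn1b was -0.36 there, so neither passed 2-fold under that name.

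Cone phototransduction genes had 2 of 19 higher and 0 lower, with a median of 0.05. They were cngb3.2, a subunit of the cone cyclic nucleotide channel, at 681 CPM in copy A and 127 CPM in copy B cones (2.42, 2.19 to 2.65), and the guanylyl cyclase activator GUCA1A (1.52). Dorsoventral genes had 5 of 13 higher and 2 lower, with a median of 0.31. The higher ones were both rows of the nuclear receptor NR2F2 (3.74 and 3.05), the ephrin efnb2a (1.22), tbx2b (1.21) and ephb2a (1.17), and the lower ones TBX2 (-2.25) and the receptor ephb2b (-1.85). GUCA1A (0.81) and tbx2b (0.23) did not pass 2-fold in retina 1, nor did ephb2a (0.57) in retina 2, and the intervals of dctn1b and ephb2a included 0. The dorsoventral list held genes known from earlier results, so its count supports nothing by itself.

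With VAX2 in copy A cones, cngb3.2 went with TMEM91 and DZANK1: it had 202 CPM in VAX2-positive and 912 CPM in VAX2-zero cones (-2.17, -2.44 to -1.92; retina names -2.77 and -1.75). USH1C (-1.29), the dynein regulator ndel1b (-1.33), the succinate dehydrogenase row SDHB ENSABLG00000004614 (-1.69) and the NR2F2 row ENSABLG00000012161 (-1.81) were lower too. The NR2F2 row ENSABLG00000013741 was also called (-2.41), from 0 against 19 UMIs in retina 1 and 2 against 3 UMIs in retina 2, where its ratio was 0.30. In retina 2 alone ndel1b did not pass 2-fold (-0.92), nor did ATF2 in retina 1 alone (0.69). The T-box gene tbx2b (1.64) and ATF2 (1.05) were higher, besides VAX2, and the intervals of ATF2 and SDHB included 0. In counts, lower genes were 1 of 18 in phototransduction, 1 of 8 in the Usher list and 1 of 24 in transport. The respiratory chain had 1 of 28 lower and the dorsoventral list 2 of 13. In phosphatidylcholine synthesis 0 of 17 genes were called, and 0 of 5 relatives. Over all 7309 genes 2.28% were higher and 4.05% lower, so counts of 0 or 1 do not set these short lists apart. The ratios of cngb3.2 and the other list genes pool the copy A clusters described above, which differed in VAX2. They are not given within a cluster, so they do not show a difference among like cones.

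Against lws cones, higher list genes were LPCAT2 (2.10), a relative of LPCAT1, the dynein chain DYNC1I1 (3.65), the kinesin-associated kifap3b (2.86), NDUFV1 (1.20) and the SDHB row ENSABLG00000017054 (1.11, interval -0.37 to 3.05). The values of DYNC1I1 (1.12 to 8.98), kifap3b (0.29 to 8.21) and nr2f5 (5.16 to 12.95) each rested on 1 lws UMI. NDUFV1 (0.59) and SDHB ENSABLG00000017054 (0.51) did not pass 2-fold in retina 2. The cadherin pcdh15a was lower, at 360 CPM in copy A and 813 CPM in lws cones (-1.18). Among dorsoventral genes, nr2f5 (7.64), VAX2 (5.08), the ephrin receptor EPHB3 (4.24), ephb2b (1.69) and SMOC1 (1.68) were higher, and TBX2 (-4.43), tbx5b (-3.00), the efnb2a row ENSABLG00000001777 (-2.44) and tbx2b (-1.27) were lower. That made 5 of 14 higher and 4 lower. JNK signalling (12 genes) and phototransduction (18 genes) had 0 called in either direction. Over all 7834 genes 9.42% were higher and 4.79% lower, so these counts of 0 do not set those short lists apart.

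Genes most like the members were named by the Pearson correlation of log2(CPM + 1) over 15 cone groups and classes, which share libraries and free RNA. The 10 genes closest to the mean of the members were SYN3 (0.87), a synapsin, ST3GAL2 (0.84), ABLIM3 (0.84), ANKRD44, st7, galnt18a, ACADS, PLBD1, klf7b and HIP1 (0.79). SYN3 had 110 CPM in copy A, 28.6 CPM in copy B and 9.0 CPM in lws cones. FIBCD1 was closest to the copy A opsin opn1mw1 ENSABLG00000007605 itself (0.96), then to iqsec3a and ARHGEF25 (both 0.84). Copy A cones were defined by that opsin, so any gene high in copy A cones alone would correlate with it. The levels of FIBCD1 and the opsin in copy A cones were nearly equal, 1893 and 1902 CPM, while free RNA held 313 and 181 CPM. The opsin level in copy A cones was also shaped by that choice of cones.

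TMEM91 was closest to TMEM132E (0.97) and the neurotrophin NTF3 (0.92). In VAX2-positive and VAX2-zero copy A cones TMEM132E had 901 and 728 CPM, and NTF3 had 843 and 928 CPM. These genes shared the cone types of TMEM91, but in copy A cones they differed with VAX2 by less than 2-fold. DZANK1 was closest to the protocadherin PCDH17 (0.92), at 284 and 239 CPM, and to the unnamed gene ENSABLG00000001765 (0.91), at 4.6 and 35.9 CPM in VAX2-positive and VAX2-zero copy A cones. CIB2 was closest to myzap (0.98), at 492 CPM in copy A, 514 CPM in copy B and 392 CPM in lws cones, and 13.2 CPM in sws1 cones. Its pair with cycsb had the highest correlation among the members (0.82).

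On the copy B side, sh3bp5b was closest to GRIK5 (0.91), a glutamate receptor subunit, to THRB (0.87), the thyroid hormone receptor needed for red cones in zebrafish, and to hs6st3a (0.86). THRB had 31.7 CPM in copy A, 553 CPM in copy B and 609 CPM in lws cones. LPCAT1 ENSABLG00000015600 was closest to YIPF1 (0.80) and to the copy B opsin opn1mw1 ENSABLG00000007592 (0.78), which likewise defined the copy B cones. The other LPCAT1 row was closest to slc9a6b (0.91) and CLTA (0.90). FEZ1 was closest to PLBD1 (0.89) and EPHB3 (0.88), and EPHB3 had 3123 CPM in VAX2-positive and 1871 CPM in VAX2-zero copy A cones. Closest to cycsb was RUNX3 (0.84), at 117 CPM in copy A cones, 22.2 CPM in copy B cones and 69.5 CPM in lws cones.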

How the data were processed

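Per the labels' protocols, nuclei of whole adult retinas were fixed and barcoded by combinatorial barcoding (Parse Evercode) and sequenced. The authors deposited counts that are not normalized, UMIs of each gene in each barcode. The sources used here name no aligner, annotation or barcode filter. Deposited tables of barcode totals for 5 retina names were not used for levels.

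Barcodes with at least 500 UMIs were nuclei. Leiden clusters (40 components, 15 neighbours, resolution 1, scanpy 1.11.5) were made from 2496 variable genes without opsins, tbx5, vax and member genes, and named by fixed marker lists. An iridophore-like cluster led by lens genes was left unnamed after its leading genes were seen. A cone was assigned an opsin row with at least 2 cone-opsin UMIs and 80% of them. The doublet caller's own thresholds marked 0.063% of nuclei in sublibrary s1 and 36.7% in s2. The threshold of s2, 0.0589, was therefore used for both, and high scorers were kept. Counts were summed per group. The ratio code was tested on simulated data.

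Members, lists and tests were chosen with earlier results of these data known. Named were the members, list genes past 2-fold (at most 5 per list and direction) and the genes most like the members. The nuclei could not be tied to the labelled replicates, so values have no test. Alternatives changed depth, opsin rule, clusters, doublets, thinning, fold, UMI minimum, VAX2 rule and free RNA.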

Additional observations from a re-analysis of the deposited data

Results flagged for a closer look

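FEZ1 was flagged because its VAX2 ratio had opposite signs in 2 cell classes, the same way under both retina names. DZANK1 also had opposite signs, in copy A and copy B cones, but its copy B call rested on retina 2. The log2 ratio of VAX2-positive over VAX2-zero nuclei was 0.71 in copy A cones (1.00 in retina 1 and 0.37 in retina 2) and -0.61 in Müller glia-like nuclei (-0.53 and -0.67). The difference between the classes was not tested. In copy A cones the ratio was -0.52 in sublibrary s1 and 1.61 in s2. In Müller glia-like nuclei it was 0.53 without high doublet scores.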

How the results depend on the processing

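No paired analysis was possible because the retina names match no label and so give no replicate number, and no test was run; ratios within each retina name stand beside the results. Of 186 counts of called members under alternative settings, 164 stayed within 1.5 times the reported count, among them all those of copy A over copy B, lws cones and rods. With VAX2 in copy A cones the 2 lower members became 1 at 4-fold and 1 within the cluster holding most copy A cones. In copy B cones the 1 higher member became 0 with 3 opsin UMIs and 95%, thinned to 1000 UMIs or in sublibrary s1 alone, and 2 at 1.5-fold. In sws1 cones 0 higher became 1 at 1.5-fold, with no UMI minimum or with free RNA taken off, and the 1 lower became 0 at 4-fold and 2 with no minimum. In sws2 cones 2 lower became 1 when thinned. In rods 0 higher became 1 in sublibrary s2 or with at least 2 VAX2 UMIs, 2 at 1.5-fold and 3 with no minimum. In Müller glia-like nuclei the 4 higher became 0 when thinned or with free RNA taken off, 1 without high doublet scores or at 4-fold, and 2 in retina 1 or sublibrary s1 alone. Of 766 single ratios, 651 stayed, 110 moved and 5 were labelled reversed, all of them for ratios reported past 2-fold. FEZ1 in copy A over lws cones gave -0.45 when thinned and -0.17 within the lws cluster. DZANK1 with VAX2 in copy B cones gave -0.86 under the stricter opsin rule. TMEM91 with VAX2 in sws2 cones gave 0.12 when thinned. LPCAT1 ENSABLG00000015600 in Müller glia-like nuclei gave -0.59 with free RNA taken off. Both FEZ1 values and the thinned TMEM91 value rest on the floor of 3 counts, so they fix no direction. Ratios short of 2-fold also changed sign and are not among these 5. Examples are FEZ1 with VAX2 in copy A cones (sublibrary s1) and in Müller glia-like nuclei (without high doublet scores), and CIB2 with VAX2 in copy B cones (retina 1). The causes of the other changes were not tested. Rods gave no value with free RNA taken off. The settings within clusters, VAX2 in copy A and sws2 cones, and the counts of lower members in copy A against copy B and in sws1 cones were chosen after seeing the data. Few cones of lws, sws1 and sws2 limit all ratios on them.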

Other observations

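In copy B cones the few FIBCD1 and DZANK1 UMIs were not spread evenly. In retina 2, 30 UMIs of FIBCD1 lay in 5 of 123 nuclei, and 30 UMIs of DZANK1 also in 5. In the cluster that holds most lws cones, the 23 copy B cones of retina 2 had 178 CPM of FIBCD1 and 164 CPM of DZANK1, and the 18 of retina 1 had 0 of both. In the same cluster sh3bp5b had 24.1 CPM and LPCAT1 ENSABLG00000015600 had 32.1 CPM over 41 copy B cones, against 180 and 158 CPM over the 205 copy B cones of the main rh2 cluster.

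By tbx5, sh3bp5b had 0 CPM in 15 lws cones with a tbx5 UMI and 68.3 CPM in 61 without. With so few nuclei, the 0 does not show that its RNA was absent from them. TMEM91 had 505 CPM in 30 sws1 cones with a tbx5 UMI (796 and 348 CPM in the retina names) and 196 CPM in 116 without (188 and 203 CPM). In Müller glia-like nuclei, FIBCD1 had 418 CPM in a cluster of 279 nuclei with VAX2 at 287 CPM and 96.7 CPM in a cluster of 151 nuclei with VAX2 at 144 CPM, against 313 CPM in free RNA.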
